A study of Mus musculus with 12 samples.

Results

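The 48 genes described here mark plasma cells or serve the secretory pathway of the endoplasmic reticulum (ER). They were chosen by symbol from a list, and each was represented by the transcript cluster that names that gene alone and has the highest mean level, out of 19937 genes so represented on the array. The 48 genes comprised 8 of plasma cell identity and 40 of general ER function, and all 48 passed the filter on low values. Levels are log2 values after robust multi-array averaging (RMA), so a difference of 1 is a doubling, and every difference is knockout minus wild type. The samples were lineage-depleted bone marrow of mice, that is, marrow from the hind legs after magnetic removal of cells bearing B220, CD2, CD11b, GR1, Ter119 or NK1.1. One group was E4bp4-/- (6 arrays) and the other E4bp4+/+ (6 arrays), with the RNA of a separate mouse on each array. Age, sex, strain, the part of the gene that was deleted and any treatment beyond the depletion are not given in the sources used here. E4bp4, also called Nfil3, is a basic leucine zipper transcription factor, and the series asks which marrow genes depend on it.

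Plasma cells are the antibody-secreting end stage of the B lineage. The factors Irf4, Prdm1 and Xbp1 set up their programme, and the ER then expands with chaperones, disulphide isomerases, a translocon through which new proteins enter, and a degradation system that returns misfolded proteins to the cytosol. The same ER machinery works at a lower level in every nucleated cell, and the sensors Ern1 and Atf6 raise it when unfolded proteins accumulate (the unfolded protein response, UPR). Syndecan-1, the plasma cell marker also called CD138, was not among the antigens used for depletion.

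Nfil3 ran from 6.34 to 6.92 in the knockout and from 6.94 to 7.66 in the wild type, so the genotypes did not overlap in the targeted gene. Knockout replicate 1 stood apart: its Xist was at 6.08 and its Y-linked Eif2s3y at 7.37, against at least 12.10 and at most 4.13 on the other arrays. This is a male-type signal, while all other arrays of both genotypes had a female-type signal. Its 11 granulocyte markers averaged 10.73, against 8.45 to 9.43 on the other knockout arrays, and its Igha was at 12.70, against 8.18 to 9.34 on all others. Results are therefore also given without it. Of 13 plasma cell markers measured as single genes, which include Derl3 and 7 identity genes, at least 12 reached the array's 20th percentile on every array. Prdm1 was close to that bound, which lay between 4.93 and 4.99, and reached it on 11 arrays. Several of these markers are also made by B cells and other leukocytes, so they do not isolate plasma cells within a mixed fraction. In such bulk RNA, fewer cells of a type and less RNA per cell cannot be told apart.

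Upstream sequences are shown first because the ER stress response is read from a known promoter element, and its letters were found among the general ER genes. The ER stress response element (ERSE), bound by Atf6 with the CCAAT factor NF-Y, was searched as CCAAT, any 9 bases, then CCACG, on both strands in the 250 bases before each RefSeq start (GRCm38.p6, the first listed start of each gene). RefSeq held a promoter for 39 of the 48 genes. The letters were present in 9 of 32 general ER promoters and in 0 of 7 identity promoters, against 0.122% (33) of 27025 promoters. The 9 were Hspa5, Hsp90b1, Dnajc3, Creld2, Calr, Canx, Pdia6, Derl3 and Syvn1. Promoters of chaperone, isomerase and degradation genes are printed, 5′ to 3′ on the strand of the gene, with 20 bases on either side and the element in capitals.
Hspa5 (chr2:34772005-34772063, plus strand, element from 65 bases before the start): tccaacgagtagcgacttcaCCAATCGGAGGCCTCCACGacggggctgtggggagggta
Hsp90b1 (chr10:86705513-86705571, minus strand, element in reverse, from 107 bases before the start): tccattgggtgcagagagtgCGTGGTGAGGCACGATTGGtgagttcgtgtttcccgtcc
Pdia6 (chr12:17266471-17266529, plus strand, element from 98 bases before the start): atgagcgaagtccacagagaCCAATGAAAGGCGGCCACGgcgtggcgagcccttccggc
Derl3 (chr10:75893222-75893280, plus strand, element in reverse, from 156 bases before the start): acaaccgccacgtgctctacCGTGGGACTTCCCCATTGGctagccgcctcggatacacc
Syvn1 (chr19:6046512-6046570, plus strand, element from 44 bases before the start): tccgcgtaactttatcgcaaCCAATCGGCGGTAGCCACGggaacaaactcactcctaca
Hsp90b1 held a second copy as written, from 212 bases before its start. The shorter ACGTG core recognised by Xbp1 was in 13 of the 32 general ER promoters and 1 of the 7 identity promoters, that of Jchain, against 16.6% of all promoters; it is shown because Jchain had the largest difference of the 48 genes, with the core in capitals in reverse.
Jchain (chr5:88527942-88527986, minus strand, core from 69 bases before the start): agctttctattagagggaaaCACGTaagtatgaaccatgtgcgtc
The palindromic E4bp4 site TTACGTAA was in 0 of the 39 promoters (0.0999% of all), and TTATGTAA, searched on both strands, was in that of Sec61b alone (0.862% of all). The UPR element TGACGTGG was in 0 of them (0.503% of all). A match of letters is a description of this window and says nothing of binding in marrow.

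The genotypes were compared first for the 8 plasma cell identity genes. Of these, 7 were higher in the knockout and Ell2 was lower, with a median difference of 0.165 log2. The median over all 29541 transcript clusters tested was 0.015, and 55.9% of them were higher. The count of 7 of 8 higher was also found after centring each array on its median and after quantile normalisation, with medians of 0.124 and 0.169. Of all transcript clusters, 40.4% and 52.3% were higher under these 2 scalings, with medians of -0.025 and 0.005. None of the 48 genes passed an adjusted p of 0.05 in limma over all transcript clusters, and neither did any of the 29541 (0%). At an unadjusted p under 0.05 in limma, 7 of the 48 genes were higher, against 8.47% of all transcript clusters, and 2 were lower, against 6.39%. Of the 7 higher, 5 were identity genes: Prdm1, Irf4, Sdc1, Jchain and Mzb1. Under median centring 0 identity genes were higher at that p (3.53% of all transcript clusters) and Ell2 was lower (12.6% of all). After quantile normalisation 2 were higher (5.80% of all). The counts thus changed with the scaling, and so did the shares of all transcript clusters. The counts also changed with single arrays. The 7 higher of the 48 became 4 without knockout replicate 1 or 3 or wild type replicate 4, and 3 without wild type replicate 5 or 6. The 2 lower became 0 without knockout replicate 4, 5 or 6 or wild type replicate 3. They became 1 without knockout replicate 3 or wild type replicate 1, 4 or 6. The matching shares of all transcript clusters ran from 6.60% to 8.60% higher and from 5.12% to 6.68% lower. The exact permutation test of each gene's 12 values gave a two-sided p under 0.05 for 8 of the 48, the same genes as limma without Jchain, against 15.3% of all transcript clusters. In none of the 48 transcript clusters that represent the genes were the genotypes without overlap, against 1.27% of all transcript clusters. A dimmer cluster of Pdia4 is described below.

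The 3 transcription factors of the plasma cell programme were all higher in the knockout. Xbp1, which is spliced by Ern1 and then drives secretory genes, ran from 10.80 to 11.24 in the knockout (median 10.94) and from 10.59 to 11.02 in the wild type (median 10.84). Array 1 was the highest of both genotypes, and the ranges overlapped from 10.80 to 11.02. The difference was 0.15 ± 0.086 log2 (SE, n = 6 and 6; exact permutation p = 0.143). The deposited table gives a single level per transcript cluster, so spliced and unspliced Xbp1 are not separated. Prdm1, the repressor Blimp-1 that ends the B cell programme, ran from 5.05 to 5.31 (median 5.25) against 4.93 to 5.22 (median 5.05). In the knockout 4 arrays lay above the highest wild type array. Its difference was 0.17 ± 0.058 (exact permutation p = 0.0216, limma adjusted p = 0.238), at a level close to the 20th percentile. Irf4, which acts upstream of Prdm1, ran from 5.82 to 6.46 (median 6.07) against 5.73 to 6.06 (median 5.78). Its knockout values were spread, with replicates 1 and 5 at 6.46 and 6.40. The difference of 0.28 ± 0.11 (exact permutation p = 0.0433, limma adjusted p = 0.285) was 0.21 without knockout replicate 1.

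Ell2, an elongation factor that favours the secreted form of immunoglobulin heavy chain mRNA, was the identity gene on the lower side. It ran from 10.01 to 10.51 in the knockout (median 10.42) and from 10.31 to 10.61 in the wild type (median 10.55). Replicate 1 was the lowest array of both genotypes, at 10.01 and 10.31. The difference was -0.15 ± 0.083 (exact permutation p = 0.102), and -0.08 without knockout replicate 1.

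The surface markers differed by 1.11- to 1.12-fold. Sdc1, syndecan-1, ran from 7.66 to 7.87 in the knockout (median 7.70) and from 7.44 to 7.85 in the wild type (median 7.55). The knockout arrays were tight and 5 wild type arrays lay below all of them, while wild type replicate 1 lay among the highest. The difference was 0.16 ± 0.067 (exact permutation p = 0.0498, limma adjusted p = 0.316). Tnfrsf17, the receptor BCMA through which plasma cells receive survival signals, ran from 6.33 to 6.92 (median 6.60) against 6.30 to 6.61 (median 6.44). Its 3 highest values were knockout arrays, but the lowest knockout array lay below the wild type median, and the difference of 0.16 ± 0.098 gave an exact permutation p of 0.160.

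Jchain and Mzb1 serve antibody assembly, and Jchain showed the widest spread of the identity genes. Jchain, which links IgM and IgA into polymers, ran from 9.59 to 10.52 in the knockout (median 10.11) and from 8.60 to 10.41 in the wild type (median 9.58). Wild type replicates 5 and 6 were low, at 8.60 and 8.64, and wild type replicate 1 lay within the upper knockout values. The difference of 0.66 ± 0.29 log2, a 1.58-fold difference, had an interval from 0.02 to 1.29 (95%) and an exact permutation p of 0.0779 (limma adjusted p = 0.326). Leaving out each array in turn gave 0.49 to 0.85. Mzb1, a chaperone cofactor that helps IgM assemble, ran from 6.35 to 7.05 (median 6.46) against 6.11 to 6.45 (median 6.29). Knockout replicate 5, at 7.05, was far above the others. The difference was 0.26 ± 0.11 (exact permutation p = 0.0325, limma adjusted p = 0.310), and the lowest of the differences with an array left out was 0.16.

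**Figure D1:**
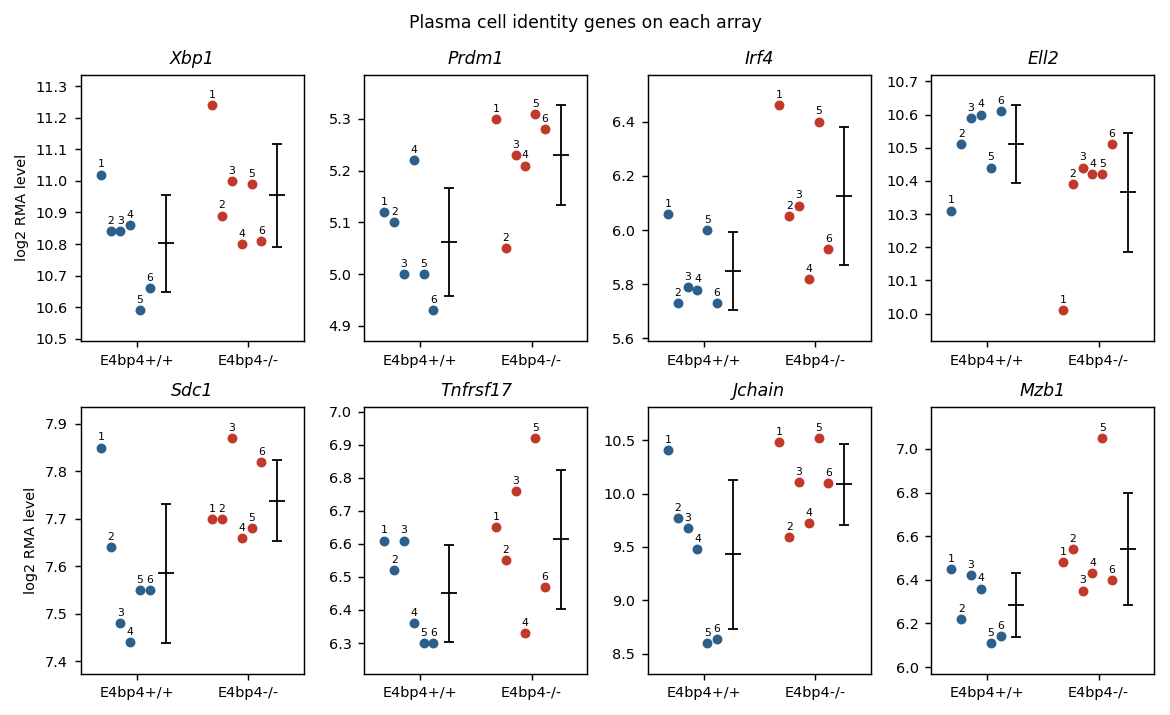
Log2 RMA levels of the 8 plasma cell identity genes (vertical axes, each with its own range) on each array, numbered by replicate, for the 6 E4bp4+/+ and 6 E4bp4-/- mice; bars are mean ± SD. Knockout means are higher for every gene except Ell2, and the ranges of the genotypes overlap in all 8; Jchain spans 8.60 to 10.52.

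Immunoglobulin genes and other markers were set beside these values. Ighm, the heavy chain constant gene of IgM, ran from 7.90 to 9.75 in the knockout and from 6.73 to 8.86 in the wild type, a difference of 0.92 ± 0.37 (exact permutation p = 0.0433, limma adjusted p = 0.285). Like Jchain and Mzb1, it was highest in knockout replicate 5, and like Jchain it was lowest in wild type replicate 5. Igha, that of IgA, differed by 0.57 ± 0.61, and by -0.09 without knockout replicate 1. Pou2af1, a B cell coactivator, was higher on all 6 knockout arrays than on any wild type array (0.68 ± 0.13, exact permutation p = 0.00216, the smallest this design allows; limma adjusted p = 0.140). The 13 plasma cell markers include Derl3 and every identity gene except Ell2, so most of their values repeat those above. All 13 were higher, where 55.9% of all transcript clusters were, and their median was 0.261. Without knockout replicate 1, 12 were higher and the median was 0.164, and without knockout replicate 5 it was 0.167. Their mean level ran from 7.33 to 7.92 in the knockout and from 7.08 to 7.44 in the wild type. Of 10 B cell and B cell precursor markers 8 were higher, with a median of 0.109, and 5 after median centring or 6 after quantile normalisation. Without knockout replicate 2 this median was 0.024 with 6 higher, and without knockout replicate 1 it was 0.060. Among them Cd79a, a B cell receptor chain that reached the 20th percentile on 11 arrays, differed by 0.33 ± 0.11, the largest of the 10. Blnk was lower by the most, at -0.14 ± 0.083, and Ms4a1, Ebf1, Blk and Fcer2a lay between -0.01 and 0.03. The mean level of these B cell markers ran from 6.19 to 6.54 in the knockout and from 6.15 to 6.35 in the wild type, and at least 8 of the 10 reached the 20th percentile on every array; Ms4a1 reached it on 5 arrays and Fcer2a on 3. Of 8 plasmacytoid dendritic cell markers 7 were higher, with a median of 0.157, and 6 after either other scaling; their mean level ran from 7.58 to 8.08 and from 7.57 to 7.90. None of the 7 reached an unadjusted p of 0.05 in limma, while the chemokine receptor Ccr9, chosen after its value was seen, was lower by the most of the 8, at -0.51 ± 0.14 (exact permutation p = 0.0108, limma adjusted p = 0.184). The part of these cells in the identity gene values was not tested.

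The 40 general ER genes divided into 18 higher and 22 lower in the knockout, with a median difference of -0.006 log2. After quantile normalisation 24 were higher and the median was 0.017; after median centring 15 were higher and it was -0.046. At an unadjusted p under 0.05 in limma, 2 were higher, Derl3 and Sel1l, and 2 lower, Dnajb11 and Pdia3. The shares of all transcript clusters at that p were 8.47% higher and 6.39% lower. The 95% intervals of the 40 genes all lay between -0.40 and 0.64. Of these intervals 4 excluded 0, while 14.9% of all transcript clusters had that p in either direction.

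The UPR factors showed small differences with mixed sign. Ern1, the IRE1 sensor that splices Xbp1, ran from 9.34 to 10.03 in the knockout (median 9.56) and from 9.31 to 9.73 in the wild type (median 9.56). The difference was 0.08 (interval -0.18 to 0.34) and 0.00 without knockout replicate 1, its highest array. Ddit3, the stress factor CHOP, differed by -0.16 ± 0.11, with 7.99 to 8.53 against 8.21 to 8.78. Atf4, which drives Ddit3 in the integrated stress response, differed by -0.06 ± 0.055, and Atf6 by -0.02 ± 0.056. None of the 4 reached an unadjusted p of 0.05 in limma; without knockout replicate 1, Atf4 did, at a difference of -0.10.

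Among the 11 chaperones and their partners 7 were higher and 4 lower (median 0.033). After median centring, or without knockout replicate 1, 5 were higher, and the medians were then -0.007 and -0.005. Dnajb11, a J-domain partner of the ER Hsp70, ran from 9.48 to 9.67 in the knockout (median 9.54) and from 9.55 to 9.81 in the wild type (median 9.69). In the knockout 3 arrays lay below every wild type array. The difference was -0.14 ± 0.056 (exact permutation p = 0.0411, limma adjusted p = 0.297). Manf, a small ER stress protein, differed by -0.09 ± 0.058, and Hyou1, a large chaperone that exchanges nucleotide on Hspa5, by 0.10 ± 0.092, or 0.05 without knockout replicate 1. The chief chaperone Hspa5 (BiP) ran from 12.25 to 12.61 against 12.11 to 12.65, a difference of 0.06 with an interval from -0.15 to 0.27, and 0.02 without knockout replicate 1. Of the lectin chaperones that hold glycoproteins for folding, Canx differed by -0.01 (-0.08 to 0.06), the narrowest interval of the 11, and Calr by 0.03 (-0.11 to 0.18), or -0.01 without knockout replicate 1. Sdf2l1 had the largest positive difference of the group, 0.13 ± 0.13, which was 0.03 without knockout replicate 1.

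The disulphide and prolyl isomerases, which shape disulphide bonds and proline turns, were 3 higher and 3 lower, and 2 were higher without knockout replicate 1. Pdia3, the isomerase that works with Canx and Calr, ran from 11.54 to 11.81 in the knockout (median 11.63) and from 11.65 to 11.88 in the wild type (median 11.77). In the knockout 4 arrays lay below every wild type array, and replicate 1 lay inside the wild type range. The difference was -0.13 ± 0.053 (exact permutation p = 0.0368, limma adjusted p = 0.308), and -0.16 without knockout replicate 1. Fkbp2, a prolyl isomerase, differed by -0.08 ± 0.062, and Pdia4 by 0.07 ± 0.085, or 0.02 without knockout replicate 1. A dimmer transcript cluster that also names Pdia4 ran from 6.83 to 7.11 against 6.67 to 6.83 (0.19 ± 0.055, exact permutation p = 0.00216, limma adjusted p = 0.198), so the transcript clusters of this gene disagree in size. The disulphide isomerases P4hb and Pdia6 differed by 0.03 and 0.07, and by -0.03 and 0.00 without knockout replicate 1; for Fkbp11, a prolyl isomerase abundant in secretory cells, the interval ran from -0.11 to 0.10.

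ER-associated degradation had 6 of 9 genes higher, with a median of 0.053. Derl3, a derlin of the channel that exports misfolded proteins and the derlin most typical of secretory cells, ran from 7.75 to 8.51 in the knockout (median 8.09) and from 7.36 to 8.10 in the wild type (median 7.75). Knockout replicate 5 was the highest array, as in Jchain and Mzb1, and wild type replicate 5 the lowest. The difference was 0.36 ± 0.13, the largest of the general ER genes (exact permutation p = 0.0346, limma adjusted p = 0.260), and with each array left out it lay between 0.27 and 0.43. The other derlins were slightly lower, Derl1 at -0.05 ± 0.049 and Derl2 at -0.08 ± 0.069. Sel1l, the adaptor of the ubiquitin ligase Syvn1, ran from 10.37 to 10.55 (median 10.41) against 10.25 to 10.45 (median 10.29). Of the wild type arrays 4 lay below every knockout array. Its difference was 0.13 ± 0.049 (exact permutation p = 0.0260, limma adjusted p = 0.276), while that of Syvn1 was 0.04 ± 0.037. Edem1, a lectin that hands glycoproteins to this ligase, differed by 0.19 ± 0.096 (exact permutation p = 0.0779) and by 0.11 without knockout replicate 1; Edem2 and Edem3 differed by -0.02 and 0.05, and Edem2 by -0.10 without that array. Herpud1, a stress-induced scaffold of the complex, differed by 0.17 ± 0.14, and by 0.09 without knockout replicate 1.

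The translocon and signal peptidase genes had the smallest differences. Of 10 genes 9 were lower, within -0.08 and 0.05, with a median of -0.030; after quantile normalisation 5 were lower. The translocon channel Sec61a1 ran from 12.34 to 12.55 in the knockout and from 12.42 to 12.54 in the wild type, a difference of -0.05 ± 0.042. The signal peptidase subunits Spcs2 and Spcs3 differed by -0.05 ± 0.040 and 0.05 ± 0.056, and the catalytic subunit Sec11c by -0.04; the interval of Spcs1 ran from -0.11 to 0.10. The translocon-associated proteins Ssr1, Ssr2, Ssr3 and Ssr4 lay between -0.03 and -0.01. Sec61b was named by 3 transcript clusters whose differences were -0.08, -0.21 and 0.00, the first being that of the brightest cluster.

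**Figure D2:**
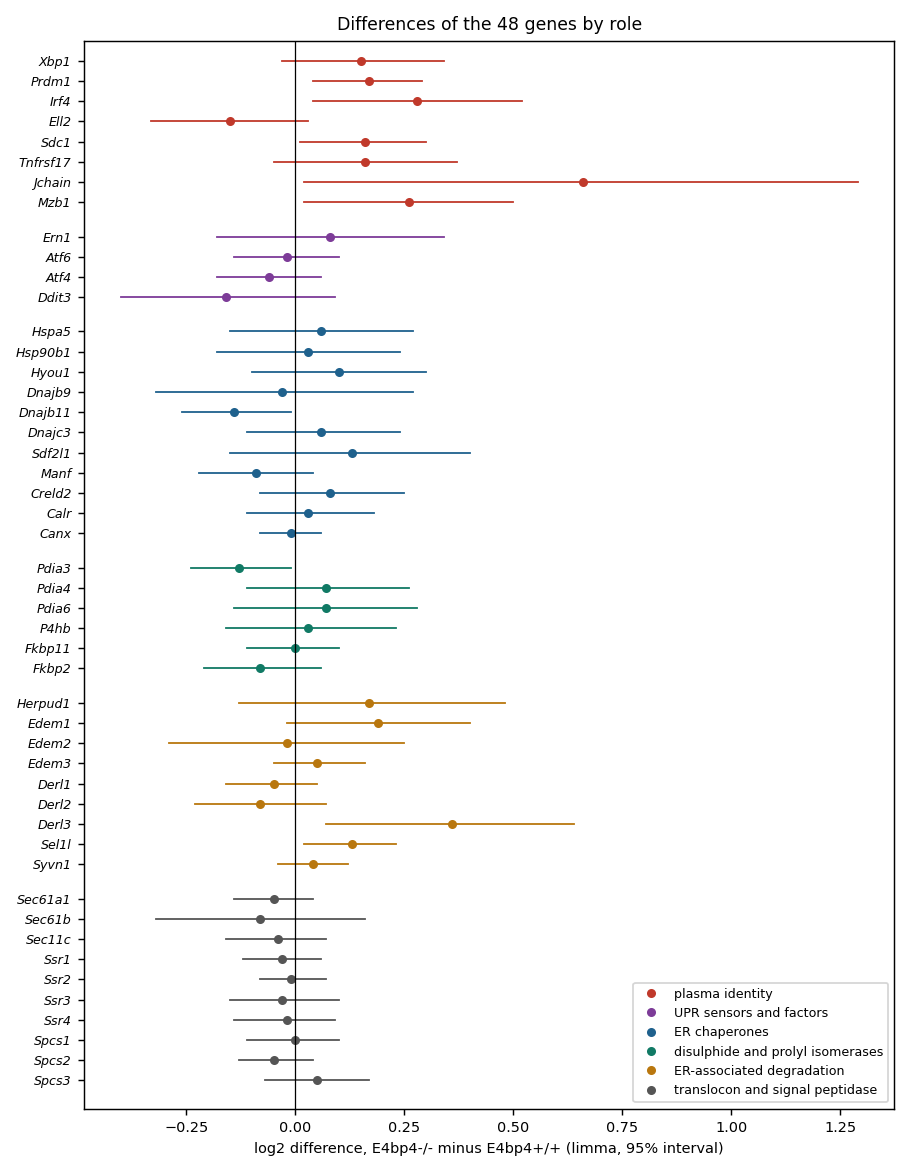
Log2 difference, E4bp4-/- minus E4bp4+/+, of the 48 genes (horizontal axis; vertical line at 0) with limma 95% intervals from 6 arrays a genotype, grouped and coloured by role. The identity genes other than Ell2 lie to the right of 0, Jchain and Derl3 reach 0.66 and 0.36, and the translocon and signal peptidase genes lie within -0.08 and 0.05.

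The genes with the ERSE letters were set beside the other general ER genes, a division made with their values known and therefore not tested. Of the 9 with the element, 8 were higher in the knockout, with a median of 0.057. Of the 23 searched without it, 8 were higher and 15 lower, with a median of -0.023. Without knockout replicate 1 the counts higher were 6 of 9 and 7 of 23, and the medians 0.022 and -0.057. After median centring the counts were 6 of 9 and 7 of 23, and after quantile normalisation 9 of 9 and 12 of 23, so the counts of both groups were larger under that scaling. Derl3 was the 1 gene of the 9 with an unadjusted p under 0.05 in limma; the others with the element differed by -0.01 to 0.08, less than their intervals.

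The arrays differed from each other in ER genes more than the genotypes did. The mean level of the 40 general ER genes ran from 10.28 to 10.58 in the knockout and from 10.30 to 10.53 in the wild type. Replicate 1 was the highest array in both, and the lowest were knockout replicate 4 and wild type replicate 5. Of the 40 genes, 26 were highest of the knockout arrays in replicate 1, against 20.5% of all transcript clusters tested, and 29 were highest of the wild type arrays in replicate 1, against 18.2%. Knockout replicate 4 was the lowest knockout array for 17 of the 40 (16.1% of all) and wild type replicate 5 the lowest wild type array for 18 (14.7%). The chaperones and isomerases Hspa5, Dnajb9, Sdf2l1, Pdia4, Pdia6 and P4hb all had their maximum in replicate 1 of both genotypes, and so did Edem1, Edem2, Herpud1 and Sec61b. Dnajb9, a J-domain cofactor induced by Xbp1, was at 10.64 and 10.66 on these arrays and at most 10.35 elsewhere.

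The identity genes departed from this order of arrays mainly in knockout replicate 5; knockout replicate 4 and wild type replicate 5 were again lowest and wild type replicate 1 highest. Their mean level ran from 7.80 to 8.16 in the knockout and from 7.57 to 7.98 in the wild type, and the highest array was knockout replicate 5, at 8.16. That array had a middling general ER mean of 10.38. It was the highest knockout array for Prdm1, Tnfrsf17, Jchain and Mzb1, and for Derl3 among the ER genes. Wild type replicates 5 and 6 were lowest in the mean of the identity genes, both at 7.57. Without knockout replicate 1 the identity genes had a median difference of 0.158, still with 7 of 8 higher, and the general ER genes one of -0.019 with 15 of 40 higher. Without both arrays numbered 1 the medians were 0.201 and -0.016.

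**Figure D3:**
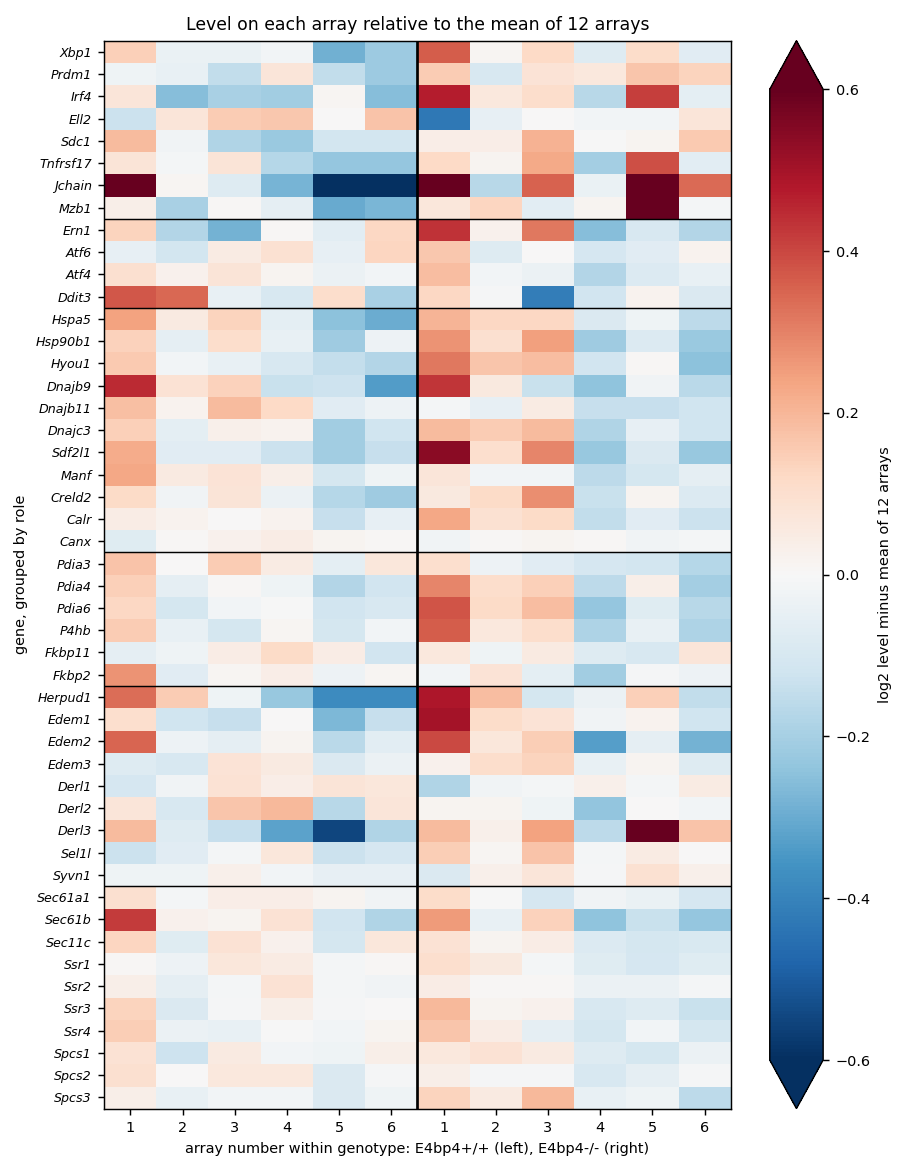
Level of each of the 48 genes on each of the 12 arrays as log2 level minus the gene's mean over the 12 arrays (colour scale, clipped at ± 0.6), wild type arrays on the left and knockout arrays on the right, genes grouped by role. Array 1 of both genotypes is high across most ER genes, and knockout array 5 is high in Jchain, Mzb1, Tnfrsf17, Irf4 and Derl3.

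**Figure D4:**
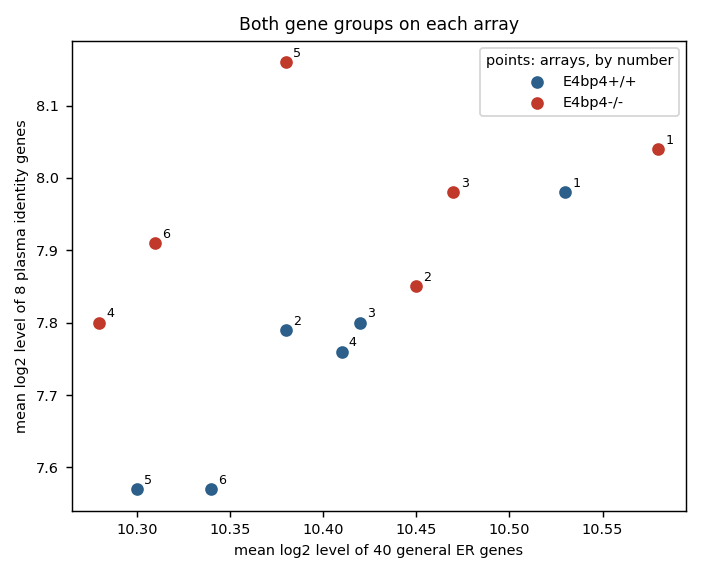
Mean log2 level of the 8 plasma identity genes (vertical axis) against that of the 40 general ER genes (horizontal axis) on each array, numbered by replicate and coloured by genotype. Knockout array 5 reaches 8.16 in identity genes at a general ER mean of 10.38, and both arrays numbered 1 lie at the right, at 10.53 and 10.58.

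Markers of other marrow cells followed the order of the arrays in ER genes only in part. The 9 stem and progenitor markers averaged 9.69 in knockout replicate 1 and 9.46 in wild type replicate 1, the highest of each genotype, with the others at 9.30 to 9.48 and 9.22 to 9.30; all 9 reached the 20th percentile on every array. All 9 were higher in the knockout, with a median of 0.128, and 8 after either other scaling. Without knockout replicate 1, 7 were higher and the median was 0.098. At an unadjusted p under 0.05 in limma, 6 of the 9 were higher, against 8.47% of all transcript clusters. That count was 4 without knockout replicate 1 (8.42% of all) and 2 after median centring (3.53% of all). Kit, the stem cell factor receptor, differed by 0.19 ± 0.064. The 10 monocyte and macrophage markers averaged 8.98 in knockout replicate 1, against 7.34 to 7.82 on the other knockout arrays, and 7.90 in wild type replicate 1, against 7.32 to 7.84. All 10 were higher in the knockout, with a median of 0.224, which was -0.029 with 4 higher without knockout replicate 1. Of the 11 granulocyte markers 10 were higher, with a median of 0.288, which was 0.032 with 6 higher without that array. The granulocyte markers in wild type replicate 1 averaged 9.29, below replicate 2 at 9.46. Wild type replicate 6, with a general ER mean of 10.34, had the monocyte and macrophage mean of 7.84. The 8 stromal and bone cell markers were highest in knockout replicate 4 and wild type replicate 5, at 9.74 and 10.01, the arrays lowest in ER genes; 7 of the 8 were lower in the knockout and at least 7 reached the 20th percentile on every array. The 5 genes listed for the depleted lineages were Klrb1c, Cd2, Ptprc, Itgam and Ly6g. They averaged 6.94 in knockout replicate 1, against 5.93 to 6.31 on the other knockout arrays and 5.92 to 6.24 in the wild type. On some arrays only 3 of them reached the 20th percentile, and Ptprc was the brightest, at a wild type mean of 8.75. With a single level per transcript cluster, the B220 form of Ptprc is not separated from its other forms. The part of these cells in the ER values was not tested.

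Further secretory pathway genes, in 5 lists, gave 65 measured genes, of which 27 were higher and 38 lower, with a median of -0.016. At an unadjusted p under 0.05 in limma 2 were higher (8.47% of all transcript clusters) and 6 lower (6.39%), and 0 passed the adjusted threshold. Without knockout replicate 1, 18 of the 65 were higher. In signal recognition and translocation 9 of 12 were lower, among them the signal recognition particle proteins Srp9 (-0.14 ± 0.053), Srp19 (-0.12 ± 0.049) and Srp14. In N-glycosylation and glycoprotein folding 0 of 12 reached that p; Stt3b, a catalytic subunit of oligosaccharyltransferase, and Ganab, a glucosidase, both differed by -0.04. In oxidative folding 6 of 11 were higher: the disulphide isomerase Txndc5, abundant in plasma cells, differed by 0.11 ± 0.045 (exact permutation p = 0.0238) and the peroxiredoxin Prdx4 by -0.09 ± 0.051. In ER to Golgi transport 8 of 15 were lower. Kdelr3, a receptor that returns escaped ER proteins, ran from 6.82 to 7.66 in the knockout and from 6.95 to 8.37 in the wild type, a difference of -0.51 ± 0.20 (exact permutation p = 0.0476, limma adjusted p = 0.285), and Sec16a, an organiser of ER exit sites, differed by 0.10 ± 0.049. Among further UPR and integrated stress genes 8 of 15 were lower; Erlec1, an ER lectin of the degradation pathway, differed by -0.17 ± 0.054 (exact permutation p = 0.0108) and Selenok, a selenoprotein of the ER membrane, by -0.24 ± 0.099. After median centring 14 of the 65 were higher, where 40.4% of all transcript clusters were, and after quantile normalisation 36 were, where 52.3% of all were.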

How the data were processed

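Affymetrix Mouse Gene ST arrays measured RNA of 12 lineage-depleted marrow samples. The authors deposited log2 levels of 34760 transcript clusters made with GeneSpring GX version 11 and RMA16, per the series design text; the log2 scale was inferred from the values (3.18 to 14.33). Probe values were not used here, so steps before this table stayed as the authors ran them. Array medians ran from 6.50 to 6.62. Platform annotation named 1 gene for 21640 transcript clusters. Transcript clusters below the 20th percentile of all 12 arrays were left out, which kept 29541. Groups came from the titles. The genotypes were compared by lmFit and eBayes of limma 3.58.1 (R 4.3.3), without covariates, with Benjamini-Hochberg adjustment over all tested, and single genes by two-sided exact permutation of 12 arrays. The limma step was tested on simulated data. The number of arrays limits the precision. The members and lists were chosen with earlier results of these data known. Named were all identity genes, the 3 of lowest p per ER role, any other at an unadjusted p under 0.05, and 2 per further list; others were named after their values were seen. Older symbols were matched through RefSeq synonyms.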

Additional observations from a re-analysis of the deposited data

Results flagged for a closer look

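Among 96 gene and genotype combinations, 10 had an array that Dixon's test at 95% placed apart from the other 5; about 5 would be expected by chance. On wild type replicate 1, Sdf2l1 was at 11.51 (others 11.08 to 11.22), Fkbp2 at 9.18 (8.84 to 8.95), Edem2 at 10.18 (9.67 to 9.85) and Ssr4 at 11.31 (11.12 to 11.18), all high, while Canx was low at 13.04 (13.12 to 13.16). On knockout replicate 1, Ell2 at 10.01 (10.39 to 10.51) and Derl1 at 10.61 (10.77 to 10.84) were low. Mzb1 was high in knockout replicate 5, at 7.05 (6.35 to 6.54). Derl2 was low in knockout replicate 4, at 8.50 (8.71 to 8.75), and Syvn1 high in wild type replicate 3, at 10.10 (10.02 to 10.05).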

How the results depend on the processing

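Alternatives covered the filter, the scaling, the variance trend, array weights, exact permutation in place of limma, the replicate block, the mean of all transcript clusters of a gene, and left-out arrays; 0 of the 48 genes passed an adjusted p of 0.05 under any of them. The count higher at an unadjusted p under 0.05, 7, was 1 after median centring (3.53% of all transcript clusters) and 4 after quantile normalisation (5.80%). The count lower, 2, was 3 after median centring (12.6% of all) and 0 after quantile normalisation (6.56%). With the mean of all transcript clusters of a gene, 8 were higher (8.47% of all) and 2 lower (6.40%). With 1 array left out, the count higher ran from 3 to 8: 4 without knockout replicate 1 or 3 or wild type replicate 4, and 3 without wild type replicate 5 or 6. The count lower ran from 0 to 3: 0 without knockout replicate 4, 5 or 6 or wild type replicate 3, and 1 without knockout replicate 3 or wild type replicate 1, 4 or 6. With 1 array left out, 6.60% to 10.3% of all transcript clusters were higher at that p and 5.12% to 6.81% lower. The cause was not tested. The identity median stayed between 0.124 and 0.203 and that of general ER genes between -0.046 and 0.029 over all alternatives. Same-numbered arrays correlated at -0.033 to 0.462 in their deviations from the genotype means, over 0.1 for 3 of 6 numbers. Knockout replicates 1, 5 and 6 correlated most with the wild type array of their own number, and replicates 2, 3 and 4 did not. The numbers were not taken as pairs in the main comparison. With the replicate number as a block in limma, 6 genes were higher and 3 lower at an unadjusted p under 0.05. Of all transcript clusters, 9.73% were then higher and 7.70% lower at that p. The smallest adjusted p among the 48 was 0.173, that of Irf4, whose unadjusted limma p was 0.00126 with the block and 0.0271 without it. Xbp1, Edem1 and Ell2 then passed the unadjusted threshold, and Sdc1, Jchain and Mzb1 no longer did. The 50th percentile filter removed Prdm1, Irf4 and Fkbp11. The 33 genes named by the rule kept their sign under every alternative run; other genes given with values did not, such as Igha, P4hb and Calr without knockout replicate 1 and Edem2 and Canx after quantile normalisation.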
